A study of Schizosaccharomyces pombe with 24 samples.

Results

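Paralogous enzymes of glycolysis and of the pyruvate decarboxylase branch were followed in fission yeast (Schizosaccharomyces pombe) cells that lack the transcription factor Pho7. The 9 genes, of 6987 in each table, were the rows named tdh1 and gpd3 (glyceraldehyde 3-phosphate dehydrogenase), eno101 and eno102 (enolase), pdc101, pdc102, pdc201 and pdc202 (pyruvate decarboxylase) and atd1 (aldehyde dehydrogenase). They were selected on the group averages given below, so these averages, and the shares and ratios made from them, are descriptions to which no test was applied. The series holds 24 poly(A)+ RNA libraries, with 3 biological replicates for each of 8 groups. The WT strain AGP72 (genotype h-) was sampled at 0 h only, in log phase in YES, a rich yeast extract medium. The pho7Δ strain AGP83 has the genotype h- pho7delta::natMX, where natMX is a nourseothricin resistance marker. It was sampled in the same way (unstarved pho7Δ below). Starved samples were taken after 4 h, 8 h, 12 h, 24 h, 36 h and 48 h in ePMGT(-PO4). This is a defined minimal medium with glutamate and thiamine but without phosphate. A starved WT group was not analysed here, and the loss of phosphate and the change from YES to ePMGT cannot be told apart among these groups. A fold of a starved pho7Δ group over WT also holds the difference between the strains.

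The tables used here give each gene as the authors' mean of the normalized read counts of a group, called its average below. No value per library was analysed and the comparison statistics in the tables were not used, so averages are given here without a spread or p-value, and neighbours in an order of averages were not checked against replicate error. The average of pho7 itself, the deleted gene, was 3147 in WT at 0 h and 833 in unstarved pho7Δ, that is 26.5% of the WT average. During starvation it lay between 334 at 48 h and 598 at 8 h, so pho7 was lower in every group labelled pho7Δ but not near 0. The sum of all averages was 16621902 in WT and between 16798377 and 18645927 in the pho7Δ groups. This sum is on the scale of the authors' normalization and does not measure depth per library, which was not analysed here.

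Glycolysis splits glucose into pyruvate. Glyceraldehyde 3-phosphate dehydrogenase oxidizes glyceraldehyde 3-phosphate while fixing inorganic phosphate onto it, and enolase later turns 2-phosphoglycerate into phosphoenolpyruvate, the substrate of pyruvate kinase. Pyruvate decarboxylase commits pyruvate to fermentation by releasing acetaldehyde, which alcohol dehydrogenase reduces to ethanol and aldehyde dehydrogenases such as Atd1 oxidize to acetate. Fission yeast ferments glucose to ethanol even with oxygen present, and its genome carries more than one gene for each of these steps.

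The paralogs differ widely in how alike they are, and this bears on how their reads can be told apart. Positions and sequences are from RefSeq assembly ASM294v3, matched by systematic ID. The deposited tables carry no coordinates, and their reads were aligned to ASM294v2. tdh1 (SPBC32F12.11) is annotated at II:2807595-2809051 and gpd3 (SPBC354.12) at II:578117-580056, both on the plus strand. Their proteins of 336 and 335 residues share 93.7% of aligned residues and their coding sequences 94.3% of aligned bases. The longest identical run of the 2 transcripts is 203 bases, from base 577 to base 779 of both coding sequences. It is shown because a read inside it, taken without its mate, has no place of its own in the genome.
Run shared by tdh1 (II:2808213-2808415) and gpd3 (II:579307-579509), plus strand, both inside coding exons: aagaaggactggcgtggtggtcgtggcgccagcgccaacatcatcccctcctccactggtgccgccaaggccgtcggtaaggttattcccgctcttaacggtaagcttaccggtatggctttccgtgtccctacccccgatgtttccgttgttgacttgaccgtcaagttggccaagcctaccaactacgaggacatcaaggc

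Of the 50-base windows of the transcripts, 234 occur in both tdh1 and gpd3, which is 16.6% of the windows of tdh1 and 17.4% of those of gpd3. For the other 7 genes 0 windows of this length were found elsewhere in the genome. No source used here gives how reads of shared windows were counted, and the averages of tdh1 and gpd3 carry this uncertainty and, at this length, those of the other genes do not. The enolases are 65.6% identical in protein, eno101 (SPBC1815.01) at II:2201196-2202652 on the plus strand and eno102 (SPBPB21E7.01c) at II:58136-59690 on the minus strand, near the left end of the chromosome. The pyruvate decarboxylases form 2 sub-families. Pdc101 and Pdc102 share 57.7% of aligned residues and Pdc201 and Pdc202 share 58.9%, whereas identity between the sub-families lies between 30.6% and 33.0%. All 4 genes are on chromosome I, pdc101 (SPAC1F8.07c) at I:101715-103597 on the minus strand and, on the plus strand, pdc102 (SPAC186.09) at I:5552811-5554529, pdc201 (SPAC3G9.11c) at I:3159811-3162245 and pdc202 (SPAC13A11.06) at I:585597-587495. atd1 (SPAC9E9.09c) lies at I:4453280-4455657 on the minus strand.

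Several of the genes face an annotated transcript on the other strand. eno101 and tdh1 have none over their exons, whereas 79.2% of the exon bases of eno102 lie opposite the antisense RNA SPNCRNA.1302 and 100% of those of pdc202 lie opposite SPNCRNA.662. pdc102 is also covered over 100% of its length by a noncoding RNA, and the covered shares are 57.9% for atd1 (in part by rad26, a DNA damage checkpoint gene), 46.0% for gpd3, 34.0% for pdc101 and 7.72% for pdc201. Libraries were made with a stranded kit, but no source used here gives the strand setting of the read counting. SPNCRNA.1302 had an average of 846 in WT, 519 in unstarved pho7Δ and 590 at 48 h. SPNCRNA.662 had 119, 39.4 and 112 in these groups, and rad26 had 1726, 1069 and 796. None of the 3 was higher at 48 h than in WT, whereas the genes they face were. SPNCRNA.662 was lower in unstarved pho7Δ than in WT and then higher at 48 h, as was pdc202 opposite it. The part of the 3 in the averages given below was not tested.

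The promoters of the 2 partners that exchanged places in the lead (tdh1 and gpd3) and of the 2 enolase genes are shown as the 250 bases before the annotated transcript start, 5′ to 3′ on the strand of the gene. Capitals mark, on either strand, the bases TCGG or TCGC followed by A or T (the start of the Pho7 recognition sequence), its 12-base form in which these 5 bases are followed by NNTTNAA, and the TATA box TATAAA.
tdh1 promoter, II:2807345-2807594, plus strand: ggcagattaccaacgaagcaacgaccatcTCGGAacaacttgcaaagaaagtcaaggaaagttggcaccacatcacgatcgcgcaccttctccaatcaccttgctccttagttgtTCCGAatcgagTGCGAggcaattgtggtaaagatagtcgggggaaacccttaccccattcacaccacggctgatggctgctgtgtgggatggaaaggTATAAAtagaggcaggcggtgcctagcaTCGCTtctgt
gpd3 promoter, II:577867-578116, plus strand: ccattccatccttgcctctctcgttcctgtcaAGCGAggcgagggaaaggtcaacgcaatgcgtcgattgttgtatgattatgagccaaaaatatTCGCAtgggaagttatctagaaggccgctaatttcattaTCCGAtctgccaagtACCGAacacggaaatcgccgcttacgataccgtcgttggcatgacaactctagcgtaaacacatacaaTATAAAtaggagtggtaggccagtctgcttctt
eno101 promoter, II:2200946-2201195, plus strand: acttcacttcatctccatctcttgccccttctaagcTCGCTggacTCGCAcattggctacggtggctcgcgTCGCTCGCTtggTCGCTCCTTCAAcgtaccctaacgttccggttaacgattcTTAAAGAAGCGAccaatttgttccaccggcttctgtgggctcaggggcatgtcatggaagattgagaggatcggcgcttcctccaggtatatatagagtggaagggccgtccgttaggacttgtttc
eno102 promoter, II:59691-59940, minus strand: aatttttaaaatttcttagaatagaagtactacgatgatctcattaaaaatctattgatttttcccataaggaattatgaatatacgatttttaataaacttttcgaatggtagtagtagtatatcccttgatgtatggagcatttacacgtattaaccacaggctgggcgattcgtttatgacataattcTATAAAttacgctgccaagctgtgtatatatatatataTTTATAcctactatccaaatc

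The 12-base form was found 2 times in the eno101 window, between 167 and 156 and between 127 and 116 bases before the start, and in none of the 7 other windows searched, which were those of tdh1, gpd3, eno102, pdc101, pdc102, pdc202 and atd1. It is present in 1.95% of the 5123 promoters of this length in the genome. The 5-base form, which every 12-base match contains, is common, with 63.1% of promoters holding it, and was present in the windows of pdc101, pdc202, eno101, tdh1, gpd3 and atd1 but not of eno102 or pdc102. TATAAA on either strand, held by 44.4% of promoters, was found in the windows of tdh1, gpd3, atd1 and eno102, with 2 matches in that of eno102. It was not found in those of eno101, pdc101, pdc102 and pdc202. Only these exact letters were searched. Runs of alternating T and A, as in the windows of eno101 and pdc101, were not counted. A window without TATAAA is thus not shown to lack a TATA box. These matches describe letters and not binding, and sequence further upstream was not searched. The models of pdc102 and pdc202 have no untranslated part before the coding sequence. Their windows thus end at the start codon, and where their transcripts start is not known from the annotation. The study lists gpd3 and atd1 among genes whose induction by starvation depended on Pho7. Its criterion was a weaker induction in pho7Δ than in starved WT, not the absence of induction. As starved WT was not analysed here, that comparison was not made. The study marks candidate Pho7 sites before the start of both, those of atd1 further upstream than the window searched here.

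Of the glyceraldehyde 3-phosphate dehydrogenase genes, tdh1 had the higher average in both strains at 0 h and gpd3 had the higher one from 24 h of starvation. The average of tdh1 was 31693 in WT at 0 h and 122702 in unstarved pho7Δ, a 3.87-fold difference. It was 170242 at 4 h, the highest of its averages, and then 148135 at 8 h, 83508 at 12 h, 76913 at 24 h, 79587 at 36 h and 71249 at 48 h. Every pho7Δ group was thus above WT for tdh1, and the groups from 12 h on were below unstarved pho7Δ. The average of gpd3 was nearly the same at 0 h in the 2 strains, 5866 in WT and 5487 in pho7Δ. It was 14564 at 4 h, 43045 at 8 h, 57493 at 12 h, 91324 at 24 h, 125454 at 36 h and 126676 at 48 h, higher in each group than in the one before. At 48 h gpd3 was 23.1-fold above unstarved pho7Δ and tdh1 was 1.72-fold below it.

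The share of gpd3 in the sum of the 2 averages was 15.6% in WT and 4.28% in unstarved pho7Δ. It was 7.88% at 4 h, 22.5% at 8 h, 40.8% at 12 h, 54.3% at 24 h, 61.2% at 36 h and 64.0% at 48 h. tdh1 exceeded gpd3 by 22.4-fold in unstarved pho7Δ and by 1.45-fold at 12 h, and gpd3 exceeded tdh1 by 1.19-fold at 24 h and by 1.78-fold at 48 h. The sum of the 2 was 37559 in WT, 128188 in unstarved pho7Δ and 197926 at 48 h. Between 8 and 48 h the average of gpd3 differed by 83631 and that of tdh1 by -76886, and the sum was 5.09-fold over WT at 8 h and 5.27-fold at 48 h. The sum was not steady in between, at 3.75-fold over WT at 12 h, 4.48-fold at 24 h and 5.46-fold at 36 h. Paralogs of a family have coding sequences of nearly the same length, and shares per base of coding sequence differed from those given for the 3 families by at most 0.0737 percentage points. Exon lengths, untranslated parts included, differ more. Shares per base of exon differed by at most 4.62 percentage points, which was for pdc201 at 48 h, whose exon is 2435 bases long against 1884 for pdc101.

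**Figure D1:**
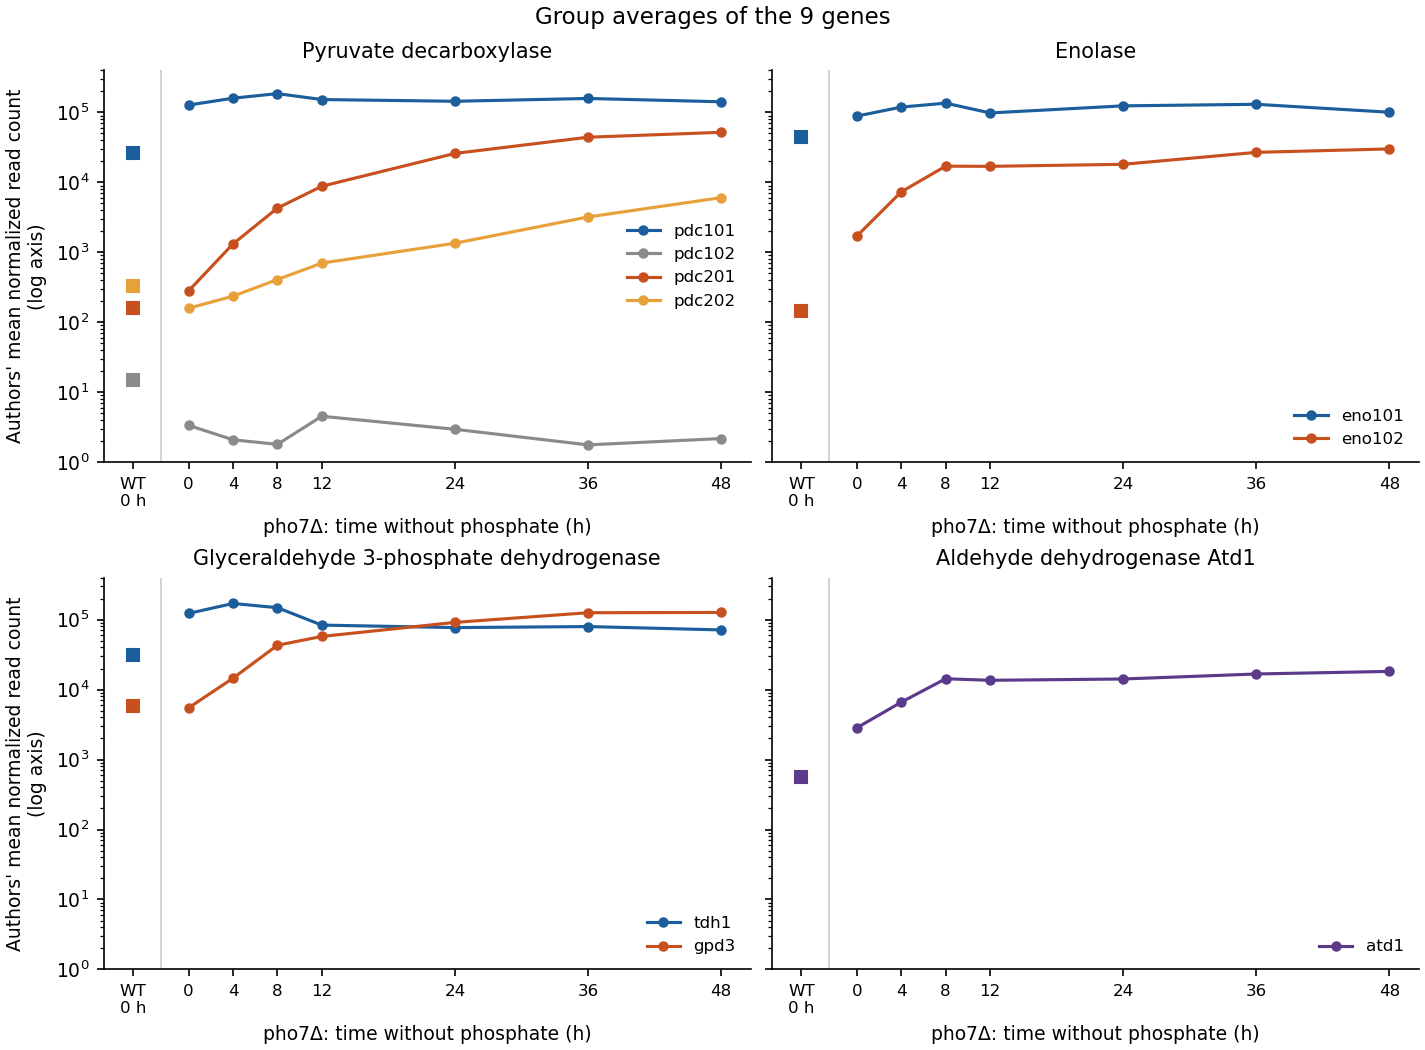
Group averages (authors' mean normalized read count, log axis) of the 9 genes by enzyme, with WT at 0 h as squares on the left and pho7Δ as circles against hours without phosphate, 1 point per group and no error bars since only averages were used. The lines of tdh1 and gpd3 cross between 12 and 24 h, pdc201 goes from 282 to 51873 while pdc101 stays between 127251 and 185375, and pdc102 is at 14.8 or lower in every group.

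The average of eno101 exceeded that of eno102 in every group, with a margin that narrowed at nearly every time. The average of eno101 was 43831 in WT, 88508 in unstarved pho7Δ, 118977 at 4 h, 135524 at 8 h, 98146 at 12 h, 123933 at 24 h, 130470 at 36 h and 100447 at 48 h. It was 2.02-fold higher in pho7Δ than in WT at 0 h, just past the 2-fold limit used below, and the ratio was 1.83 when groups were scaled to equal totals and 1.93 when they were scaled by the median ratio over genes. The pho7Δ groups of eno101 spanned only 88508 to 135524, with no order in time. The average of eno102 was 145 in WT and 1709 in unstarved pho7Δ, an 11.8-fold difference before any starvation. It was 7323 at 4 h, 17028 at 8 h, 16928 at 12 h, 18101 at 24 h, 26823 at 36 h and 30039 at 48 h, which is 17.6-fold above unstarved pho7Δ and 208-fold above WT. Unlike gpd3, eno102 stood at almost 1 level from 8 to 24 h.

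The share of eno102 in the sum of the enolase averages was 0.329% in WT and 1.89% in unstarved pho7Δ. It was 5.80% at 4 h, 11.2% at 8 h, 14.7% at 12 h, 12.7% at 24 h, 17.1% at 36 h and 23.0% at 48 h. eno101 exceeded eno102 by 303-fold in WT, by 51.8-fold in unstarved pho7Δ and by 3.34-fold at 48 h. The summed enolase average was 43976 in WT, 90217 in unstarved pho7Δ and 130486 at 48 h, and its highest value was 157294 at 36 h.

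Pdc101 was the leading pyruvate decarboxylase transcript throughout, and 2 minor paralogs with very low averages at 0 h made up 26.0% and 3.03% of the family's sum at 48 h. The average of pdc101 was 26538 in WT and 127251 in unstarved pho7Δ. It was then 159526 at 4 h, 185375 at 8 h, 152510 at 12 h, 144086 at 24 h, 158079 at 36 h and 141709 at 48 h. The 4.79-fold difference between the strains at 0 h was larger than any difference among the pho7Δ groups for this gene. The average of pdc201 was 162 in WT and 282 in unstarved pho7Δ, a 1.73-fold difference. It was 1319 at 4 h, 4285 at 8 h, 8789 at 12 h, 25901 at 24 h, 44127 at 36 h and 51873 at 48 h, higher in each group than in the one before. At 48 h pdc201 was 184-fold above unstarved pho7Δ and 319-fold above WT.

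The average of pdc202 followed a later course. It was 332 in WT and 159 in unstarved pho7Δ, 2.09-fold lower in pho7Δ. It was 236 at 4 h, 408 at 8 h, 701 at 12 h, 1348 at 24 h, 3197 at 36 h and 6041 at 48 h, which is 38.0-fold above unstarved pho7Δ and 18.2-fold above WT. pdc202 was above pdc201 in WT and below it in every pho7Δ group. The ratio of pdc201 to pdc202 was 0.489 in WT, 1.77 in unstarved pho7Δ, 19.2 at 24 h and 8.59 at 48 h. The last interval was quiet for most genes, with 99.9% of measured genes within 2-fold between 36 and 48 h, and pdc202 had 5 genes of 5622 above its log2 ratio of 0.92 in that interval. Between 24 and 36 h 3 genes of 5631 were above its 1.25. The average of pdc102 was 14.8 in WT, 3.36 in unstarved pho7Δ, and 2.09, 1.80, 4.53, 2.95, 1.77 and 2.18 at the 6 times of starvation in order. It was below 100 in every group, and no ratio is given for it.

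Within the sum of the 4 pyruvate decarboxylase averages, pdc101 had 98.1% in WT and 99.7% in unstarved pho7Δ. Its share was 99.0% at 4 h, 97.5% at 8 h, 94.1% at 12 h, 84.1% at 24 h, 77.0% at 36 h and 71.0% at 48 h. pdc201 had 0.601% in WT, 0.221% in unstarved pho7Δ, 5.42% at 12 h, 15.1% at 24 h, 21.5% at 36 h and 26.0% at 48 h (21.4% per base of exon). The share of pdc202 was 1.23% in WT, 0.124% in unstarved pho7Δ and 3.03% at 48 h. The sum of the family was 27048 in WT, 127695 in unstarved pho7Δ and 199626 at 48 h, and 51592 of the difference between the last 2 was that of pdc201, 14458 that of pdc101 and 5882 that of pdc202.

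The gene for the aldehyde dehydrogenase Atd1, which acts on the product of pyruvate decarboxylase, was higher in pho7Δ before starvation and reached most of its later level by 8 h. Its average was 561 in WT and 2847 in unstarved pho7Δ, a 5.08-fold difference. It was 6610 at 4 h, 14280 at 8 h, 13579 at 12 h, 14167 at 24 h, 16709 at 36 h and 18189 at 48 h. At 48 h it was 6.39-fold above unstarved pho7Δ and 32.4-fold above WT. Like eno102, it stood at about 1 level between 8 and 24 h.

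Levels of single genes were compared between the enzymes only per kilobase of coding sequence. In WT eno101 had 33205 per kilobase, tdh1 31349 and pdc101 15520, while gpd3 had 5819 and atd1, pdc202, eno102 and pdc201 had 371, 194, 109 and 94.8. In unstarved pho7Δ the order at the top was tdh1 with 121367, pdc101 with 74416 and eno101 with 67052, and gpd3 followed with 5443. At 48 h gpd3 was first with 125671 per kilobase, before pdc101 with 82871, eno101 with 76096 and tdh1 with 70474. pdc201 had 30282, eno102 22705, atd1 12030 and pdc202 3521. The 4 highest genes were thus the same in each of these groups, and the order of the genes in these 3 groups was the same per kilobase of exon.

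**Figure D2:**
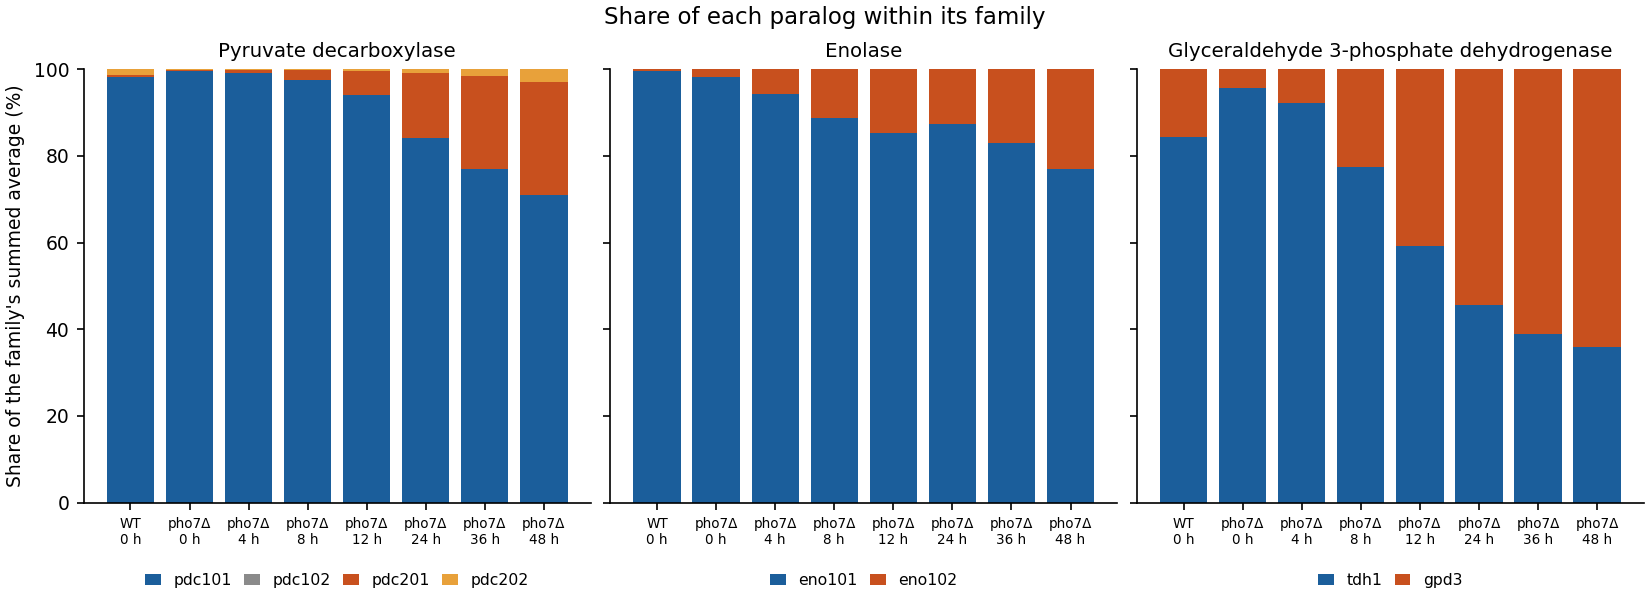
Share (percent) of each paralog in the summed average of its family, stacked for each of the 8 groups. The share of gpd3 went from 4.28% in unstarved pho7Δ to 64.0% at 48 h, that of eno102 from 1.89% to 23.0% and that of pdc201 from 0.221% to 26.0%. The share of pdc102 is too small to be seen.

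The 5 genes with higher averages late in starvation did not move on 1 schedule. At 8 h atd1 stood at 78.5% of its 48 h average, eno102 at 56.7%, gpd3 at 34.0%, pdc201 at 8.26% and pdc202 at 6.76%. At 24 h the same values were 77.9%, 60.3%, 72.1%, 49.9% and 22.3%. The order at 8 h was thus atd1, eno102, gpd3, pdc201 and pdc202, and at 24 h gpd3 had passed eno102. Summed over the families, pdc201, pdc202, eno102 and gpd3 had 5.99% of the averages of these 4 and of pdc101, eno101 and tdh1 together in WT and 2.21% in unstarved pho7Δ. After 8 h they had 12.1%, after 24 h 28.4% and after 48 h 40.6%. Sums over the families are of averages not divided by length, so longer genes weigh more in them. The sum of pdc101, eno101 and tdh1 was 338461 in unstarved pho7Δ, 448745 at 4 h, 469034 at 8 h, 334164 at 12 h and 313406 at 48 h. As a share of all averages it was 1.85% in unstarved pho7Δ, 2.60% at 8 h and 1.87% at 48 h. All 9 genes together made up 0.657% of all averages in WT, 1.90% in unstarved pho7Δ and 3.25% at 48 h.

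**Figure D3:**
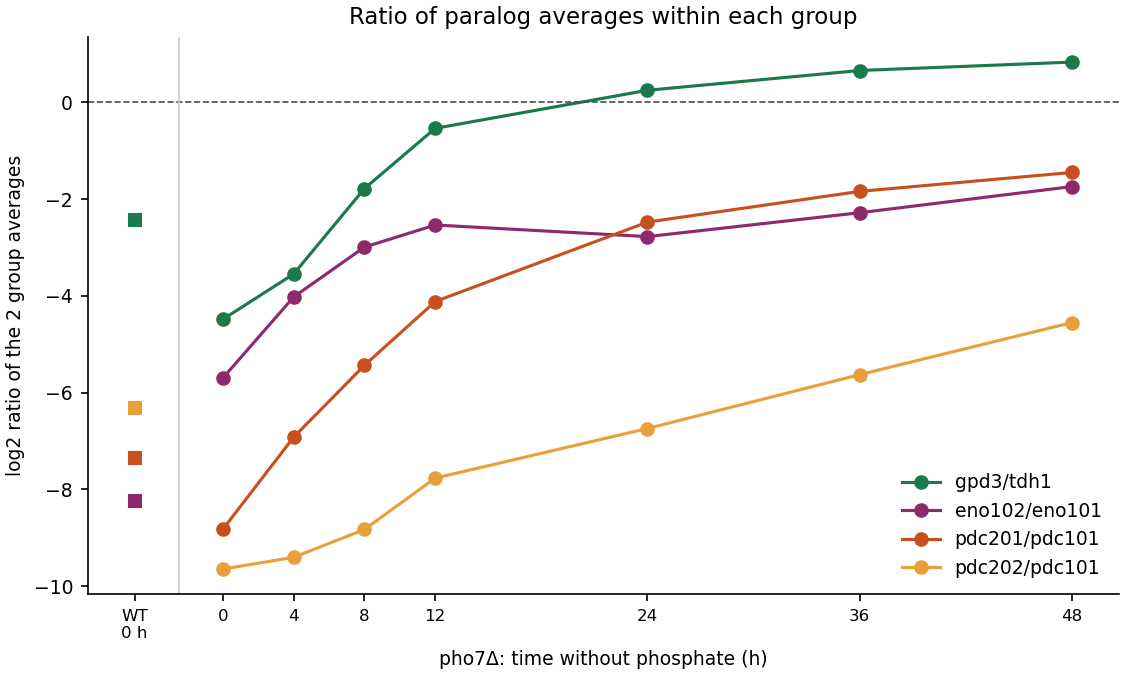
Log2 ratio of the averages of 2 paralogs within each group, with WT at 0 h as squares and pho7Δ as circles against hours without phosphate. The dashed line marks equal averages. gpd3/tdh1 passes it between 12 and 24 h and reaches 0.83 at 48 h, whereas eno102/eno101 is at -1.74, pdc201/pdc101 at -1.45 and pdc202/pdc101 at -4.55 at 48 h.

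A ratio inside 1 group does not depend on how groups are scaled to each other. For 3 of the 4 pairs in the plot of paralog ratios the log2 ratio was lower in pho7Δ than in WT at 0 h, -4.48 against -2.43 for gpd3/tdh1, -8.82 against -7.35 for pdc201/pdc101 and -9.64 against -6.32 for pdc202/pdc101. For eno102/eno101 it was higher, -5.69 against -8.24. Every pair had a higher ratio at each later time than in unstarved pho7Δ, and the pairs gpd3/tdh1, pdc201/pdc101 and pdc202/pdc101 had a higher ratio at each time of starvation than at the one before. eno102/eno101 was the exception, at -2.54 at 12 h and -2.78 at 24 h.

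The same averages were set beside those of all genes. A gene counted as measured when the higher of the 2 averages was 100 or more, and as called when the averages also differed by 2-fold or more, the fold and level limits of the study without its p-value. Of the 9 genes 8 were measured in each comparison, pdc102 being too low. In pho7Δ against WT at 0 h, 5 of them were called higher (pdc101, eno101, eno102, tdh1 and atd1), against 8.52% of 5599 measured genes. pdc202 was called lower, against 12.1% of genes. At 48 h against WT all 8 measured were called higher, where 20.9% of 5790 genes were, and 0 lower, where 19.0% were. At 4 h against unstarved pho7Δ, pdc201, eno102, gpd3 and atd1 were called higher, against 6.07% of 5520 genes, and 0 lower, against 4.60%. At 48 h against unstarved pho7Δ, these 4 and pdc202 were called higher, against 18.0% of 5701 genes, and 0 lower, against 12.7%. The comparisons share their reference group, and since the genes were selected on these averages nothing is read from the counts.

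In log2 ratios (1 added to each average), the 5 genes lay far out among all genes at 48 h against unstarved pho7Δ. pdc201 had 7.52, with 4 genes of 5701 above it, pdc202 had 5.24 with 30, gpd3 had 4.53 with 49, eno102 had 4.14 with 63 and atd1 had 2.68 with 196. pdc101 with 0.16, eno101 with 0.18 and tdh1 with -0.78 lay inside the 2-fold band that held 69.3% of genes. In pho7Δ against WT at 0 h, eno102 had 3.55 with 24 genes of 5599 above it, atd1 2.34 with 93, pdc101 2.26 with 103, tdh1 1.95 with 145 and eno101 1.01 with 467, while pdc201 had 0.79, gpd3 -0.10 and pdc202 -1.06. eno102 and atd1 were thus called higher in both comparisons, pdc101, eno101 and tdh1 in the first and gpd3, pdc201 and pdc202 in the second.

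**Figure D4:**
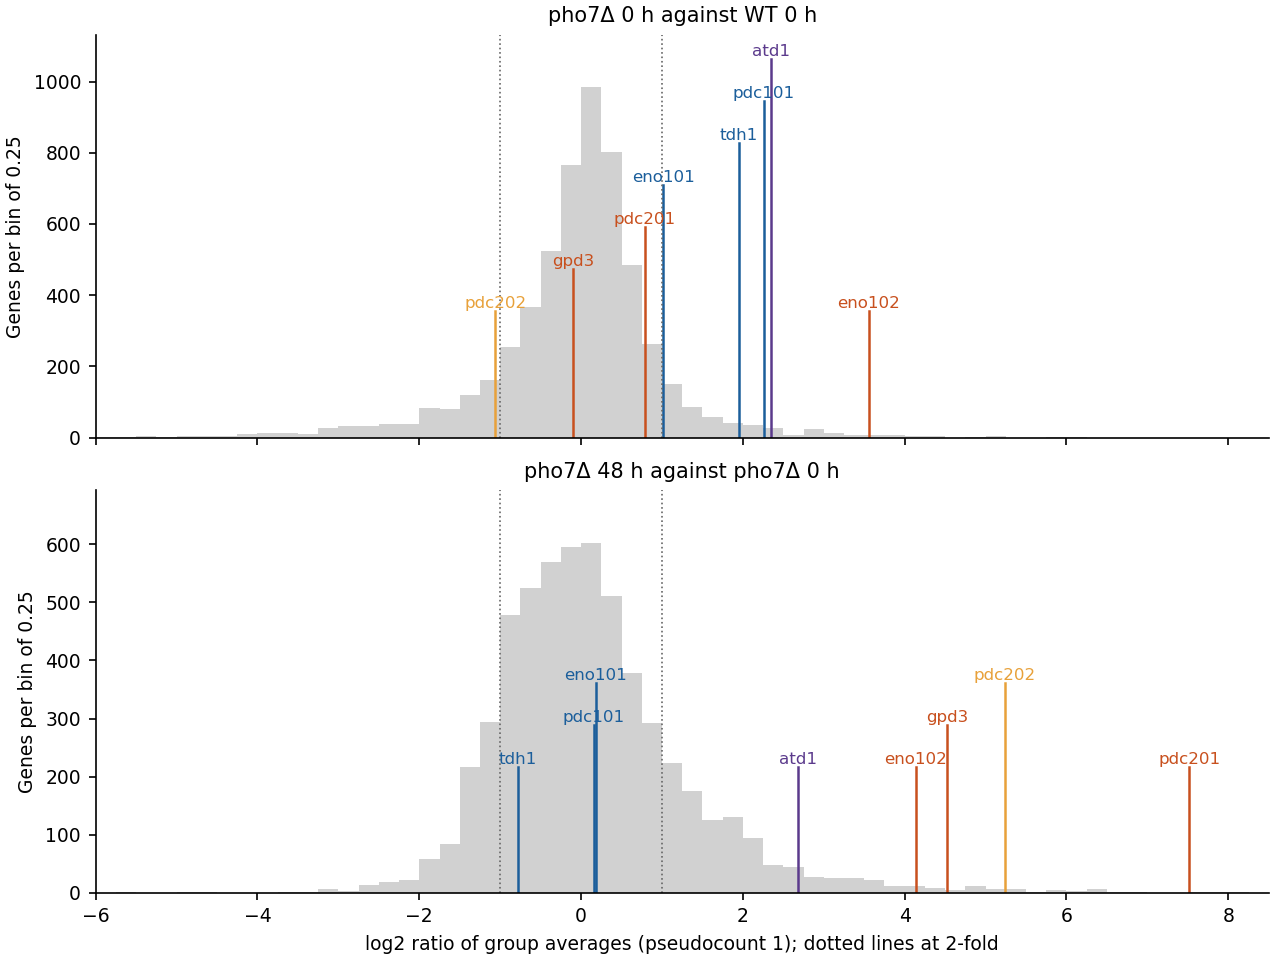
Histograms of the log2 ratio of averages over all measured genes (bins of 0.25) in pho7Δ against WT at 0 h and in pho7Δ at 48 h against 0 h, with the 8 measured genes as labelled lines whose heights carry no meaning. Dotted lines mark 2-fold. pdc101, eno101 and tdh1 are past the right dotted line above and between the dotted lines below, where pdc201 is at 7.52.

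The other genes of the same pathways were counted over lists in which each gene was taken for its enzyme. Of 14 glycolysis genes 13 had a row (glk1 did not), and without the 4 listed here 9 were left. In pho7Δ against WT at 0 h, 4 of the 9 were called higher and 0 lower (8.52% and 12.1% of all genes), with a median log2 ratio of 1.00 beside 0.06 over all genes. They were hxk2 (hexokinase), fba1 (aldolase), gpm1 (phosphoglycerate mutase) and pyk1 (pyruvate kinase), at 3.07-, 2.27-, 2.53- and 2.23-fold. Just under the 2-fold limit were pgk1 (phosphoglycerate kinase) at 1.996-fold and tpi1 (triosephosphate isomerase) at 1.979-fold. In the comparison of 48 h with unstarved pho7Δ, 1 of the 9 was called higher and 0 lower (18.0% and 12.7% of all genes), with a median of 0.12 beside -0.02. That gene was pgk1, at 2.06-fold, close to the limit in both comparisons. The 4 genes called higher before starvation were at 0.869-, 1.47-, 1.49- and 1.19-fold of unstarved pho7Δ at 48 h, in the order given, as pdc101 and eno101 were at 1.11- and 1.13-fold.

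The genes around pyruvate and acetaldehyde were counted in the same way. Of the 6 fermentation genes with a row beside the pyruvate decarboxylases and atd1, 1 was called higher and 1 lower in pho7Δ against WT at 0 h (8.52% and 12.1% of all genes). At 48 h against unstarved pho7Δ, 1 was again called higher and 1 lower (18.0% and 12.7% of all genes). With equal totals the counts at 0 h were 0 higher and 2 lower. adh1, the main alcohol dehydrogenase, had an average of 33031 in WT, 54614 in unstarved pho7Δ, 151724 at 8 h and 75579 at 48 h. The other aldehyde dehydrogenase genes each shared a part of the course of atd1. atd2 was at 841 in WT and, as atd1, was called higher in unstarved pho7Δ, with 1830, but its average was highest at 4 h, with 4040, and was 917 at 48 h. atd3 was at 1943 in WT and was called lower in unstarved pho7Δ, with 479, whereas its 48 h average of 1428 was called higher than that, and 1506 was reached at 8 h. acs1, whose product makes acetyl-CoA from acetate, was at 6090 in WT, 5936 in unstarved pho7Δ and 1301 at 48 h. Of 9 genes for the pyruvate dehydrogenase complex and other uses of pyruvate, mae2 (malic enzyme) alone was called in pho7Δ against WT at 0 h, at 47132 against 2744, and none at 48 h against 0 h. Of 12 genes of the TCA cycle with a row, cit1 (citrate synthase) and mdh1 (malate dehydrogenase) were called higher at 0 h, at 3.00- and 2.13-fold (1 of them with equal totals). None of the 12 was called at 48 h against 0 h. Beside both lists, 8.52% of all genes were called higher and 12.1% lower at 0 h. At 48 h against 0 h these shares were 18.0% and 12.7%.

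Glycerol metabolism branches from glycolysis above glyceraldehyde 3-phosphate dehydrogenase. Of its 6 genes 4 were called higher in unstarved pho7Δ, where 8.52% of all genes were. At 48 h against 0 h, 3 were called higher and 1 lower, where 18.0% and 12.7% of all genes were. The median log2 ratios were 1.46 and 0.91, beside 0.06 and -0.02 over all genes. For the dihydroxyacetone kinase genes the averages of unstarved pho7Δ and of 48 h were 9557 and 80055 (dak1) and 1191 and 15442 (dak2), and gld1 (glycerol dehydrogenase) was 3.01-fold higher at 48 h. gut2, a glycerol 3-phosphate dehydrogenase, was called lower, with 1403 in unstarved pho7Δ and 491 at 48 h. Of the 4 pentose phosphate genes with a row, gnd1 (6-phosphogluconate dehydrogenase) was called higher at 0 h, at 4.20-fold, where 8.52% of all genes were. At 48 h against 0 h, gnd1 and rki1 (ribose 5-phosphate isomerase) were called lower, where 12.7% of all genes were. fbp1, the gluconeogenic fructose-1,6-bisphosphatase, was at 6741 in WT, 867 in unstarved pho7Δ and 18095 at 48 h.

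**Figure D5:**
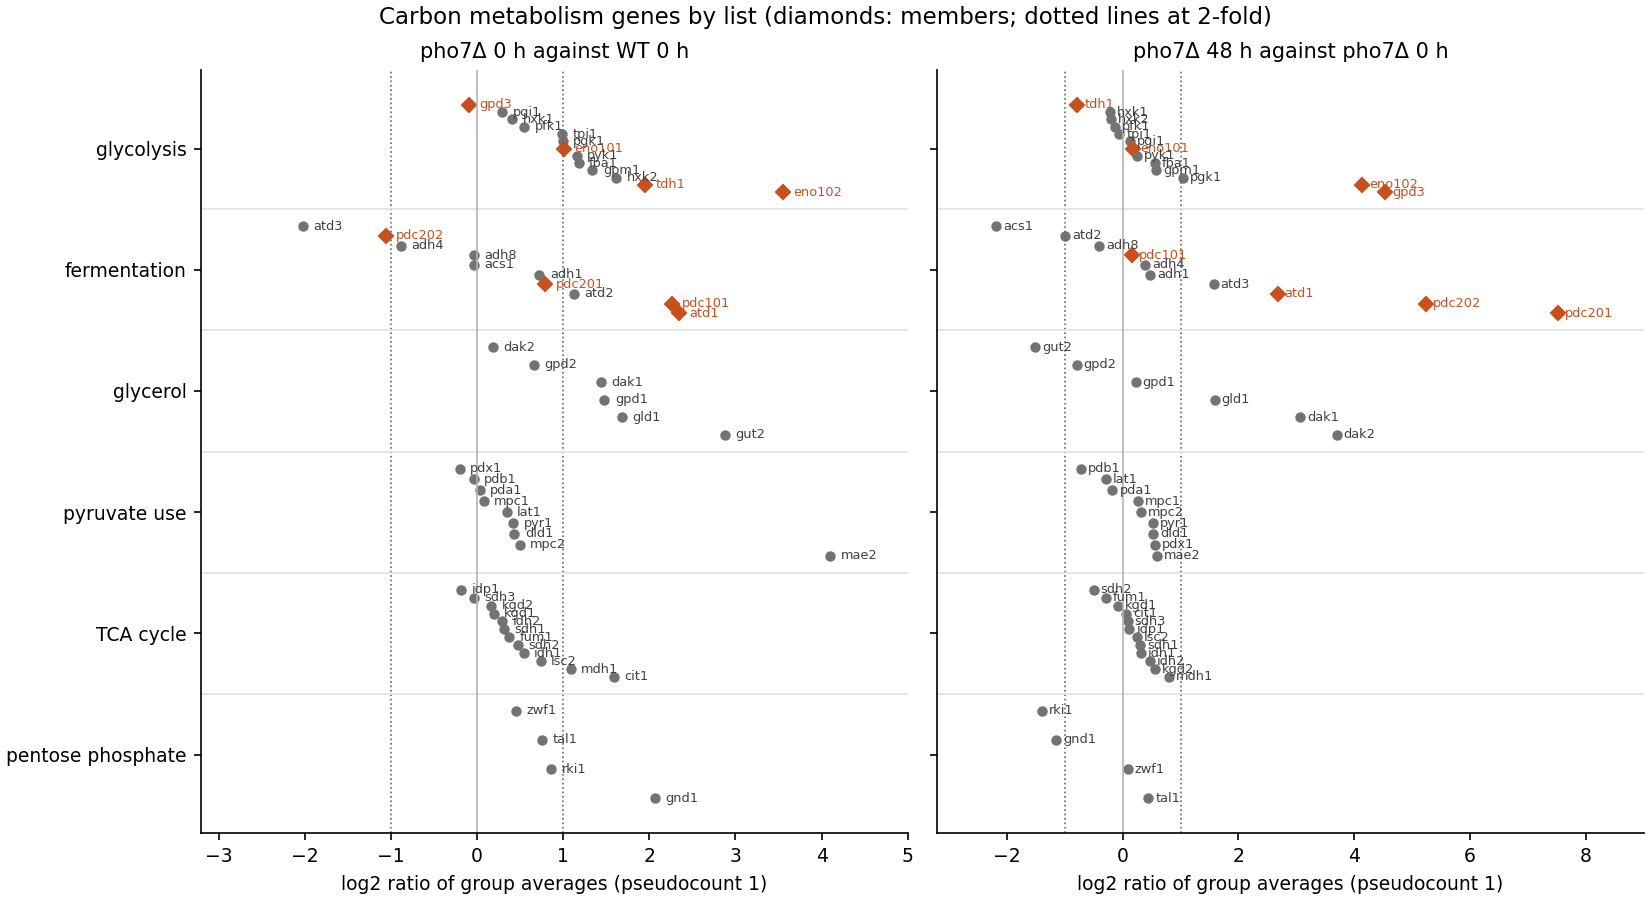
Log2 ratio of averages for the genes of 6 carbon metabolism lists in pho7Δ against WT at 0 h (left) and in pho7Δ at 48 h against 0 h (right), 1 point per gene with its name, diamonds for the genes described here and circles for the others. Dotted lines mark 2-fold. On the right pdc201, pdc202, gpd3 and eno102 lie between 4.14 and 7.52, beyond dak2 at 3.70, the highest of the circles. fbp1, of gluconeogenesis, belongs to none of the 6 lists and is not drawn, and its ratio there was 4.38.

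For each gene the 3 most similar profiles were looked up among 4935 other protein-coding genes, by the root mean square difference of centred log2 averages over the 8 groups. The lists of atd1 and eno101 held genes of known enzymes of carbon metabolism, dak1 for atd1 (0.26) and tal1, transaldolase, for eno101 (0.15). The closest to gpd3 was tda3, an amino acid oxidase gene, at 0.15, though its averages were far lower, 7.16 in WT and 214 at 48 h. The third for gpd3, SPAC11D3.01c at 0.23, encodes a protein of the Con-6 family, as do the closest gene to pdc201, SPAC869.09 at 0.48, and the third for pdc202, cum1 at 0.58. The closest to pdc202 was rec6, a meiotic recombination gene, at 0.47. The closest to eno102 was SPBPB21E7.10 at 0.27 and the second SPAC1F8.04c, a predicted hydrolase gene, at 0.35. For pdc101, tdh1 and pdc102 the closest were lsm6 at 0.13, gas5 at 0.15 and omt2 at 0.28, the last of little weight since pdc102 averages were so low. Among the members themselves the smallest distance was that of pdc101 and eno101, 0.40.

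Some of these similar genes lie beside members. SPBPB21E7.10 is the second protein-coding gene from eno102, and its averages were 4.65 in WT, 60.7 in unstarved pho7Δ and 725 at 48 h. SPBPB21E7.02c, of the phosphoglycerate mutase and 6-phosphofructo-2-kinase family, lies 862 bases from eno102 on the same strand and had 13.5, 27.5 and 611. SPBPB21E7.11, the third gene on this side, had 170, 98.7 and 8862. On the other side of eno102, fex2, a fluoride exporter gene, had 77.4, 142 and 72.6. SPAC1F8.04c and SPAC11D3.01c are the third protein-coding genes on either side of pdc101, with 1098 and 917 in unstarved pho7Δ and 10368 and 29256 at 48 h, while pdc101 itself differed by 1.11-fold between these groups. Over the 54 protein-coding genes within 3 places of any member, 47 were measured in each comparison. At 48 h against 0 h, 11 of them (23.4%) were called higher and 3 (6.38%) lower, beside 18.0% and 12.7% of all genes, and in pho7Δ against WT at 0 h 4 (8.51%) were called higher and 4 lower, beside 8.52% and 12.1%. The shares of higher calls lay near those of all genes.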

How the data were processed

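The 24 libraries hold poly(A)+ RNA, with 3 biological replicates for each of 8 groups. Per the labels, libraries came from an Illumina TruSeq stranded kit and were read in pairs. Reads were aligned with HISAT2 2.1.0 to ASM294v2, and counted on PomBase exons with HTSeq 0.10.0, with SAMtools in between. The authors normalized the counts with DESeq2. No source used here gives the options for strand and for reads with several places.

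Each of the 7 deposited tables sets a pho7Δ group against WT at 0 h over 6987 genes. The deposited group averages are of the unit signal: the authors averaged normalized counts within each group. The WT column is the same in every table. The tables also hold the authors' own comparison (log2 fold change with its standard error, statistic, p-value, adjusted p-value and overall mean), which was not used. The design allowed for counts per library. Only averages were used here, so no test, SD or leaving out of libraries was made, and depth was not analysed per library.

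Log2 ratios were computed with 1 added to each average. A gene was measured with 100 or more in the higher group and called from 2-fold. Shares are averages over the family's sum. Members and pathway lists were chosen with earlier results of these data known. Of the listed symbols glk1, ach1, sdh4, zwf2, tkt1 and rpe1 found no row, and the row named lsc1 is a cyclin gene and was left out. Named genes were the 9 members, pathway genes, pho7, and for each member the 3 protein-coding genes with the smallest root mean square difference. Neighbouring genes were looked up after the data were seen.

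Gene models, neighbours and promoters were read by systematic ID from the RefSeq genome and annotation of ASM294v3, and no coordinate was carried between assemblies. The promoter of 1 gene is not reported here. Proteins were aligned globally with Biopython 1.88 and BLOSUM62. Python 3.11.15, pandas 2.3.3 and numpy 2.4.6 were used. The call was tried on simulated averages with known folds. These were put only in genes with WT averages above those of pdc201, pdc202 and eno102, and none was at the 2-fold limit. Recovery of calls at the levels of those genes, or close to the limit, was not tested.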

Additional observations from a re-analysis of the deposited data

How the results depend on the processing

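Alternatives were equal totals per group, the median ratio to WT, a pseudocount of 0 or 10, pho7Δ at 0 h as the reference, shares per coding length, other limits on averages and a 1.5-fold limit. With no replicate spread, a value was taken as unmoved within 1.5-fold. No ratio of a member changed sign with the scale or the pseudocount, and 7 moved by more than 1.5-fold, all with a pseudocount of 10, while 461 did not. Equal totals and the median ratio shifted ratios by at most 0.17 and 0.15 on the log2 scale and changed the side of the 2-fold limit for eno101 in pho7Δ against WT at 0 h alone, with log2 ratios of 0.87 and 0.95. With pho7Δ at 0 h as the reference in place of WT, the direction of tdh1 turned at 12 h (-0.56), 24 h (-0.67), 36 h (-0.62) and 48 h (-0.78). Of ratios not called against WT, pdc202 at 4 h went from -0.49 to 0.57 and pdc102 at 12 h, with averages under 100, from -1.51 to 0.34. Of the ratios of members, 44 moved by more than 1.5-fold with this reference without such a turn of a called value. The 6 that did not move were those of gpd3. This reference shifts all times of a gene by its log2 ratio of pho7Δ to WT at 0 h. These counts thus restate the 0 h difference of each gene and are not separate checks. No share moved by 1.5-fold per coding length or per exon length, the latter chosen after seeing the data. With the 1.5-fold limit, 16 pathway counts moved and 40 did not, and tdh1 (1.72-fold) was called lower at 48 h against pho7Δ at 0 h. The counts over all genes moved with the limit on averages. In pho7Δ against WT at 0 h, genes called higher were 477 with the limit of 100, 732 without one and 251 with 1000, and genes called lower were 679 and, with 1000, 369. At 48 h against WT, higher calls were 1213 and, with 1000, 709. At 4 h against pho7Δ at 0 h, higher calls were 335, 532 without a limit and 178 with 1000, and lower calls were 254 and 434 without a limit. At 48 h against pho7Δ at 0 h, higher calls were 1027 and, with 1000, 513. No paired analysis was possible because the values used are group averages, which carry no replicate numbers. For the same reason leaving out libraries, the replicate block and other count tools were not run. The averages of tdh1 and gpd3 are limited by their shared sequence, and those of pdc102 by counts too low for a ratio.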
